A study of Mus musculus with 13 samples.

Results

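The genes described here make the machinery of DNA replication and mitosis, and 39 of them were listed by name. A listed gene was represented by the array feature whose only gene symbol in the annotation was that gene. This gave a value for 36 of the 39, out of 30142 gene symbols measured in the whole series. Mcm7, a subunit of the replicative helicase, and Foxm1, a transcription factor of mitotic genes, shared their feature with other symbols, and Ccnb1, a mitotic cyclin, had no named feature. These 3 are not described further as levels. None of the 36 had more than 1 feature.

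Expression was measured in the endometrium, the inner lining of the uterus, of 13 female C57BL/6 mice, with 1 array per mouse. All mice had lost both ovaries at an age of 6 to 8 weeks and were then treated for 12 weeks. The CON group (n = 3) ate normal chow without a pellet, and the E2 group (n = 4) carried a subcutaneous pellet releasing 17-β estradiol. The HD group (n = 3) ate a high-fat diet, and the MIX group (n = 3) received the pellet together with the high-fat diet. The ovarian supply of estrogen was thus removed in CON and HD as well. The endometrium was scraped from the opened uterus, so a sample can hold epithelium, stroma and cells beneath them. Nothing in the sources used here says whether the mice of a group shared a cage or litter, so the p-values measure the spread between these 13 mice only. The values are log2 expression values, on which a difference of 1 is a doubling, and their precision is limited by the number of arrays.

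Cells copy their DNA in S phase and separate it in mitosis, and most of these genes are transcribed mainly in dividing cells. Licensing factors load the Mcm helicase on replication origins in G1, and firing factors such as Cdc45 and the GINS complex activate it in S phase. Cyclins with Cdk1 and the Plk1 and Aurora kinases drive entry into mitosis, the spindle and its motors move the chromosomes, and the anaphase-promoting complex ends the process. In the uterus, estrogen is the classical signal for proliferation of the luminal and glandular epithelium, and its acute withdrawal leaves that epithelium largely at rest. E2F factors bind promoters of S phase genes, and the DREAM and MuvB complexes bind a short element called CHR, often near CCAAT boxes, in promoters of mitotic genes.

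The promoters of a few members are shown because the 2 classes of gene carry different words there. Promoter windows came from RefSeq (build GRCm38.p6) and held 300 bases, 250 before and 50 after the start of transcription. Of the 39 listed genes 31 matched by symbol, and the 8 without an entry were Ccna2, Aurkb, Mcm4, Gins1, Gins2, Kif20a, Tpx2 and Foxm1. E2F words were searched as TTTCCCGC, TTTCGCGC, TTTGCCGC and TTTGGCGC, CHR words as TTTGAA and TTCGAA, and CCAAT boxes as CCAAT, each on both strands, with overlapping matches allowed. An E2F word stood in 6 of 10 replication genes (Cdc6, Cdt1, Mcm3, Mcm5, Mcm6 and Mcm7) and in 1 of 18 mitosis genes (Cdk1), beside 2.61% of 27025 genes in the table. A CHR word stood in 13 of 18 mitosis genes and in 3 of 10 replication genes, beside 21.7% of all genes. Mki67 and Top2a also held a CHR word, and a CCAAT box stood in 24 of the 31, beside 41.1% of all genes. A match describes letters in the window and was not tested as a binding site. The stretches printed below are the 180 bases before the start, 5′ to 3′ on the gene's strand. Capitals mark E2F words in Mcm5 and Mcm6, both kinds in Cdk1, and CHR words in Cdc20 and Mki67. They lie at chr8:75109329-75109508 (plus strand, Mcm5), chr1:128359706-128359885 (minus, Mcm6), chr10:69352913-69353092 (minus, Cdk1), chr4:118437344-118437523 (minus, Cdc20) and chr7:135716380-135716559 (minus, Mki67).
Mcm5: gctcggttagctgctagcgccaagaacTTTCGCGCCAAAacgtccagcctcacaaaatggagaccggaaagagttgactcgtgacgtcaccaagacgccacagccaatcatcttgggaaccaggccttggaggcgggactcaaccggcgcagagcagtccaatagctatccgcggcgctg
Mcm6: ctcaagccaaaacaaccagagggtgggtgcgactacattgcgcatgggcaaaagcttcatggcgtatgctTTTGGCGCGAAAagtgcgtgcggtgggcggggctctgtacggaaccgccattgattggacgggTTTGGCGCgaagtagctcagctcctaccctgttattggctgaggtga
Cdk1: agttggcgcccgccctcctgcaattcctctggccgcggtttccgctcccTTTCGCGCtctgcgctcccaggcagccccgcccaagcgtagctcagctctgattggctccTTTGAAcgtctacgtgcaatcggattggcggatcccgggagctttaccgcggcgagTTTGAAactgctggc
Cdc20: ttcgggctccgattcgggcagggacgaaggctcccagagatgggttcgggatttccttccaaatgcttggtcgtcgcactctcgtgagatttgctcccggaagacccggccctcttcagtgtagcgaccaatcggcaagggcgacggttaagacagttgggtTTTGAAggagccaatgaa
Mki67: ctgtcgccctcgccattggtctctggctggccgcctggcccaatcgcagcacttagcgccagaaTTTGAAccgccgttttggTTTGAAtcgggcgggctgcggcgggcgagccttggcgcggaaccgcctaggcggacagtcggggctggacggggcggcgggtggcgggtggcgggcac
In Mcm5 and Mcm6, E2F words on opposite strands overlap, which makes a run of capitals longer than 1 word. The Cdk1 stretch held 1 E2F word and 2 CHR words, and the Mki67 stretch held 2 CHR words.

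Across the 13 mice the 36 members varied together, and the mice of a group differed from each other more than the groups did. The mean log2 level of the 36 members was 8.03, 7.56 and 7.03 in the CON mice, in the order of their replicate numbers. In the E2 mice it was 7.96, 6.10, 8.05 and 8.01, in the HD mice 8.10, 6.72 and 6.18, and in the MIX mice 6.71, 6.40 and 7.03. The highest mouse of all was HD replicate 1 and the lowest was E2 replicate 2. Group means were 7.54 ± 0.50 (SD, n = 3) in CON, 7.53 ± 0.95 (SD, n = 4) in E2, 7.0 ± 0.99 (SD, n = 3) in HD and 6.71 ± 0.31 (SD, n = 3) in MIX. The pooled SD within groups, 0.77, was about as large as the distance between the highest and the lowest group. All 3 MIX mice lay below the lowest CON mouse, but MIX replicate 3 (7.0263) and CON replicate 3 (7.0297) were nearly equal. The E2 and HD ranges each spanned nearly the whole series. In a bulk sample, fewer dividing cells and less RNA of these genes per cell cannot be told apart.

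**Figure D1:**
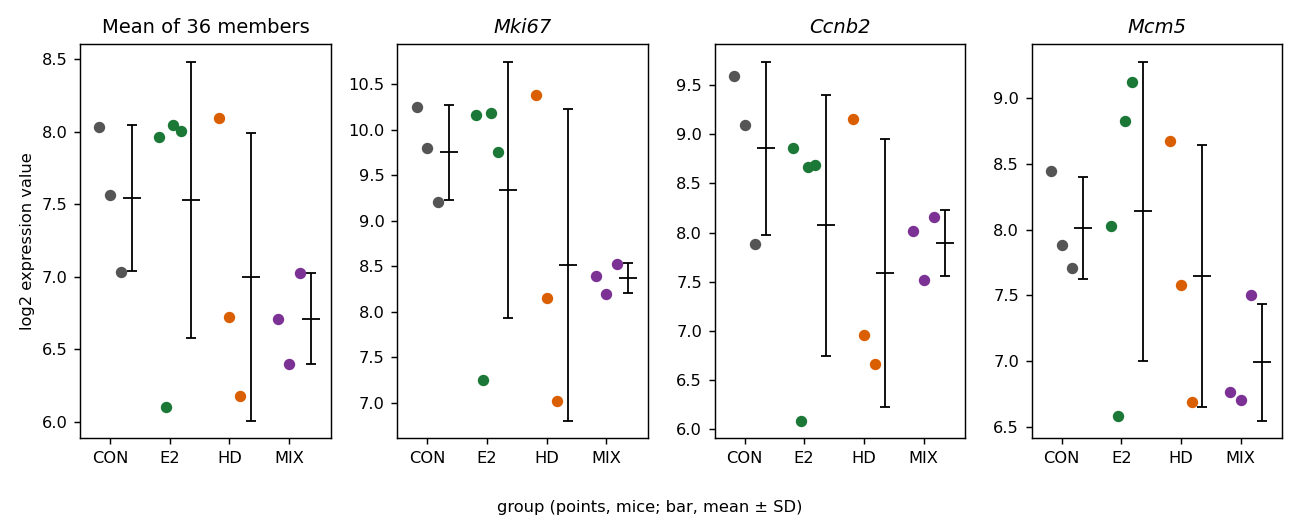
Log2 expression values (y axis) in the 4 groups (x axis) for the mean of the 36 members, Mki67, Ccnb2 and Mcm5; each point is a mouse and the bar is the group mean ± SD. E2 replicate 2 (6.10 for the mean of the members) stands far below the other 3 E2 mice (7.96 to 8.05), and the HD mice spread from 6.18 to 8.10.

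The shared variation was described with Pearson correlations between members over the 13 mice. The members' values in a mouse come from the same array and the same normalization. Over the 630 pairs the median r was 0.90, from 0.61 for E2f1 with Ccnb2 to 0.997 for Mcm4 with Mcm5. In 86.0% of pairs r was above 0.8. After each group's mean was subtracted the median r was 0.91, so the covariation was present among mice of the same treatment. Without any 1 mouse the median r lay between 0.889 and 0.918. The first axis of a principal component analysis held 91.5% of the members' variance. The spread of the members within groups was also large for this tissue. Their median within-group SD was 0.81, beside 0.148 over all genes with a feature and 0.181 over the 19497 genes above the median value. Of the 36, 15 were among the 1% of genes with the largest within-group SD and 31 among the 5%. Kif11, the motor that pushes spindle poles apart, had the largest (1.26), and Cdt1, the factor that loads the Mcm helicase, the smallest (0.30).

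**Figure D2:**
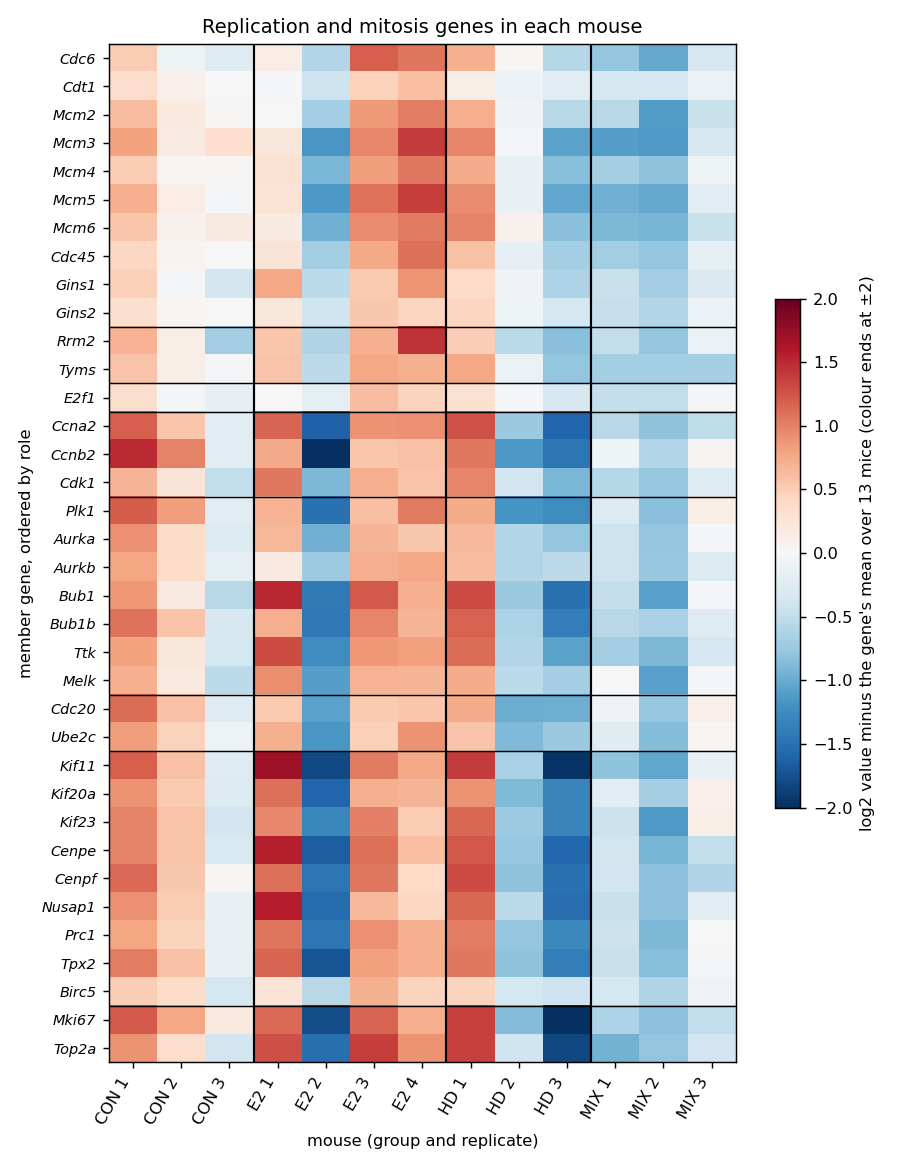
Log2 value of each of the 36 members (rows, ordered by role) in each of 13 mice (columns, by group and replicate), minus that gene's mean over the mice; red is above and blue below the mean, and colours end at ±2. Many columns are mostly of 1 colour, with E2 replicate 2, HD replicate 3 and the MIX mice blue in most rows. CON replicate 3 is mixed, with Mki67 (9.21) above its mean of 9.02 and Kif11 (7.20) below its mean of 7.46.

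**Figure D3:**
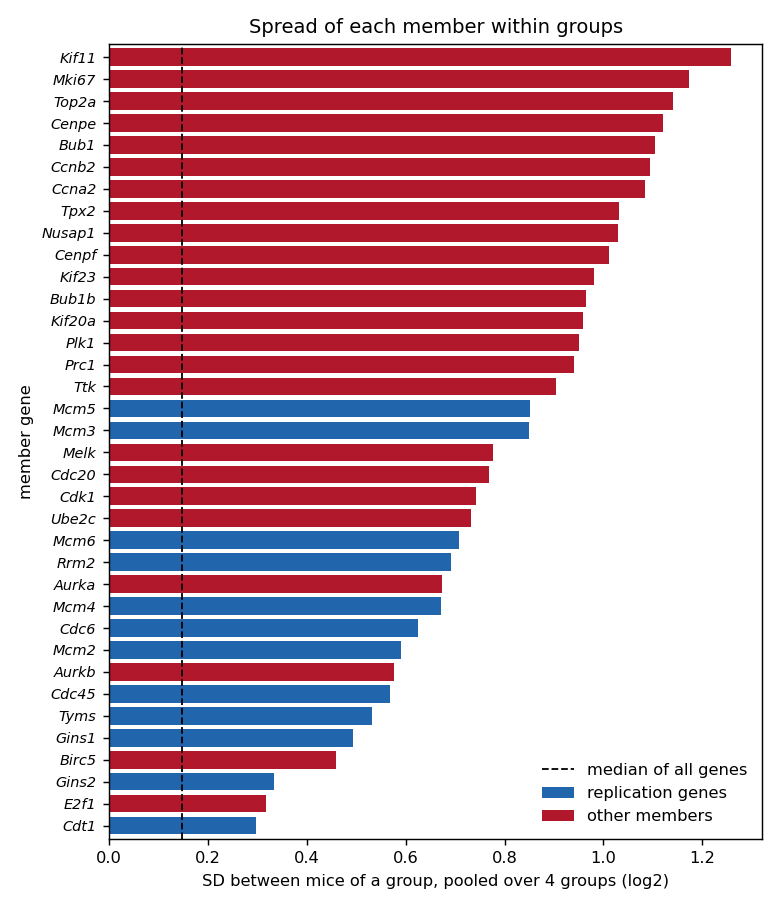
Standard deviation between mice of a group, pooled over the 4 groups (x axis, log2 units), for each member (y axis); blue bars are replication genes, red bars the other members, and the dashed line is the median of all genes with a feature (0.148). Every member lies to the right of the line, from 0.30 (Cdt1) to 1.26 (Kif11).

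Among the genes that license and fire replication origins, MIX had the lowest group mean in all 10 measured, while the lowest single mouse was E2 replicate 2 in 5 and MIX replicate 2 in 5. Mcm3, a subunit of the helicase ring, had log2 values of 8.76, 8.12 and 8.29 in the CON mice, 8.18, 6.79, 8.92 and 9.35 in the E2 mice, 8.93, 7.92 and 6.89 in the HD mice and 6.86, 6.82 and 7.62 in the MIX mice. All 3 MIX values lay below the 3 CON values, while E2 replicate 2 and HD replicate 3 were as low as MIX. The fitted difference of MIX from CON was -1.26 (SE 0.75, 95% interval -2.93 to 0.41, limma adjusted p = 0.704). Mcm2, another subunit of the ring, had log2 values of 8.87, 8.45 and 8.28 in the CON mice, 8.25, 7.58, 9.11 and 9.27 in the E2 mice, 8.98, 8.19 and 7.70 in the HD mice and 7.71, 7.14 and 7.81 in the MIX mice. MIX again lay wholly below CON, and MIX replicate 2 was the lowest of all mice. Its difference, -0.94 (SE 0.52, 95% interval -2.10 to 0.22, limma adjusted p = 0.682), had the smallest p of any member in that comparison (unadjusted p = 0.101). Mcm5, whose promoter is shown above, had log2 values of 8.45, 7.88 and 7.70 in the CON mice, 8.03, 6.58, 8.82 and 9.12 in the E2 mice, 8.67, 7.58 and 6.69 in the HD mice and 6.77, 6.71 and 7.50 in the MIX mice. The same mice were low, and the highest was E2 replicate 4. Its difference of MIX from CON was -0.93 (SE 0.75, 95% interval -2.59 to 0.74, limma adjusted p = 0.789). Mcm6 had log2 values of 8.81, 8.34 and 8.43 in the CON mice, 8.43, 7.29, 9.20 and 9.30 in the E2 mice, 9.24, 8.34 and 7.42 in the HD mice and 7.35, 7.32 and 7.81 in the MIX mice. For Mcm6 the MIX mice were also all below CON and overlapped the E2 and HD mice. Mcm4 followed Mcm5 closely and ran from 7.02 in E2 replicate 2 to 8.99 in E2 replicate 4.

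Cdc6 and Cdt1 bring the helicase to origins. Cdc6 had log2 values of 7.01, 6.41 and 6.24 in the CON mice, 6.65, 5.92, 7.71 and 7.57 in the E2 mice, 7.22, 6.53 and 5.94 in the HD mice and 5.73, 5.49 and 6.18 in the MIX mice. MIX lay below CON without overlap, and E2 replicates 3 and 4 were the highest mice. Its difference of MIX from E2, -1.05 (SE 0.54, 95% interval -2.24 to 0.15, limma adjusted p = 1), had the smallest p of any member there (unadjusted p = 0.0809). Cdt1 had log2 values of 7.09, 6.84 and 6.73 in the CON mice, 6.70, 6.33, 7.20 and 7.34 in the E2 mice, 6.85, 6.63 and 6.53 in the HD mice and 6.39, 6.41 and 6.61 in the MIX mice. The highest Cdt1 value was 2.01 times the lowest on the linear scale, the smallest such ratio among the members, and MIX again lay below CON. Cdc45, which activates the loaded helicase, ran from 6.16 in MIX replicate 2 to 8.04 in E2 replicate 4. Gins1 and Gins2, subunits of the GINS complex that joins it, had their lowest value in the same MIX mouse, at 4.82 and 6.16.

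Rrm2, a subunit of the ribonucleotide reductase, and Tyms, which makes thymidylate, supply nucleotides for DNA synthesis. Tyms had log2 values of 7.25, 6.80 and 6.64 in the CON mice, 7.26, 6.16, 7.45 and 7.40 in the E2 mice, 7.46, 6.55 and 5.90 in the HD mice and 6.01, 6.00 and 6.02 in the MIX mice. The 3 MIX mice, with a mean of 6.01 ± 0.01 (SD, n = 3), lay close together and below every CON and every E2 mouse, which held for no other member against E2. HD replicate 3 was lower still. The difference of Tyms in MIX from E2 was -0.82 (SE 0.44, 95% interval -1.81 to 0.17, limma adjusted p = 1). Rrm2 had log2 values of 7.39, 6.82 and 6.00 in the CON mice, 7.25, 6.09, 7.40 and 8.14 in the E2 mice, 7.19, 6.15 and 5.85 in the HD mice and 6.19, 5.92 and 6.56 in the MIX mice. Its MIX and CON mice overlapped. E2f1, a transcription factor of S phase genes, varied less, from 6.15 in MIX replicate 2 to 7.27 in E2 replicate 3.

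Among the mitotic cyclins and kinases the HD mice other than replicate 1 were low, and MIX was less apart. Ccnb2, a B-type cyclin that partners Cdk1, had log2 values of 9.60, 9.09 and 7.89 in the CON mice, 8.86, 6.09, 8.66 and 8.69 in the E2 mice, 9.15, 6.95 and 6.66 in the HD mice and 8.02, 7.51 and 8.15 in the MIX mice. It ran over 11.4-fold, with CON replicate 1 the highest and E2 replicate 2 the lowest mouse. The difference of HD from CON was -1.27 (SE 0.81, 95% interval -3.06 to 0.53, limma adjusted p = 1), the largest of any member in that comparison. Ccna2, the cyclin of S phase and early mitosis, had log2 values of 9.11, 8.47 and 7.69 in the CON mice, 9.07, 6.29, 8.81 and 8.83 in the E2 mice, 9.19, 7.17 and 6.33 in the HD mice and 7.35, 7.11 and 7.41 in the MIX mice. Its MIX mice lay below CON and within the HD range. Cdk1, the mitotic kinase itself, had log2 values of 7.81, 7.38 and 6.63 in the CON mice, 8.18, 6.24, 7.86 and 7.70 in the E2 mice, 8.10, 6.74 and 6.22 in the HD mice and 6.56, 6.37 and 6.89 in the MIX mice. In Cdk1 the MIX mice reached into the CON range. Plk1, which acts at centrosomes and kinetochores, had log2 values of 9.29, 8.92 and 7.85 in the CON mice, 8.77, 6.58, 8.68 and 9.12 in the E2 mice, 8.82, 6.90 and 6.83 in the HD mice and 7.80, 7.24 and 8.21 in the MIX mice. HD replicates 2 and 3 lay below every CON mouse and HD replicate 1 among them. Its difference of HD from CON, -1.17 (SE 0.72, 95% interval -2.77 to 0.43, limma adjusted p = 1), had the smallest p of any member there (unadjusted p = 0.134).

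The other kinases followed the same mice. Aurka, the spindle pole kinase, ran from 6.14 in E2 replicate 2 to 8.02 in CON replicate 1, and Aurkb, the kinase of the chromosomal passenger complex, from 5.93 in MIX replicate 2 to 7.48 in CON replicate 1. Bub1, Bub1b and Ttk hold the spindle checkpoint until chromosomes are attached. Bub1 had log2 values of 6.87, 6.17 and 5.43 in the CON mice, 7.50, 4.59, 7.22 and 6.72 in the E2 mice, 7.29, 5.25 and 4.49 in the HD mice and 5.51, 4.91 and 5.96 in the MIX mice. MIX replicates 1 and 3 lay above CON replicate 3, so the groups overlapped. Bub1b and Ttk were lowest in E2 replicate 2, at 5.49 and 4.70, as was Melk, a kinase of proliferating cells, at 5.63. Cdc20, which switches on the anaphase-promoting complex, had log2 values of 7.72, 7.19 and 6.35 in the CON mice, 7.12, 5.53, 7.12 and 7.16 in the E2 mice, 7.35, 5.62 and 5.63 in the HD mice and 6.53, 5.84 and 6.71 in the MIX mice. The lowest 3 mice were E2 replicate 2 and HD replicates 2 and 3. Its difference of HD from CON was -0.89 (SE 0.57, 95% interval -2.15 to 0.37, limma adjusted p = 1). Ube2c, the ubiquitin-conjugating enzyme of that complex, ran from 7.44 in E2 replicate 2 to 9.50 in E2 replicate 4.

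Kinetochore, motor and spindle genes included the widest range of any member. Kif11 had log2 values of 8.65, 8.04 and 7.20 in the CON mice, 9.15, 5.65, 8.50 and 8.21 in the E2 mice, 8.85, 6.80 and 5.50 in the HD mice and 6.66, 6.41 and 7.31 in the MIX mice. Its highest value was 12.5 times its lowest on the linear scale, in E2 replicate 1 and HD replicate 3. Cenpf, a protein of the outer kinetochore, had log2 values of 8.13, 7.54 and 7.04 in the CON mice, 8.09, 5.55, 8.05 and 7.40 in the E2 mice, 8.30, 6.19 and 5.51 in the HD mice and 6.62, 6.17 and 6.39 in the MIX mice. MIX lay below CON, and HD replicate 3 and E2 replicate 2 lay below MIX. Cenpe, a kinetochore motor, and Nusap1, which bundles spindle microtubules, also had MIX below CON without overlap. Kif20a and Kif23, motors of the midzone, Prc1, which crosslinks it, and Tpx2, which nucleates spindle microtubules, each had a MIX mouse within the CON range. Birc5, a subunit of the passenger complex, had the narrowest range of these, from 5.71 in MIX replicate 2 to 7.02 in E2 replicate 3.

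Mki67, the Ki-67 protein that coats mitotic chromosomes and serves as a proliferation marker, and Top2a, which untangles DNA, complete the set. Mki67 had log2 values of 10.25, 9.80 and 9.21 in the CON mice, 10.16, 7.25, 10.19 and 9.76 in the E2 mice, 10.38, 8.15 and 7.02 in the HD mice and 8.40, 8.20 and 8.52 in the MIX mice. The 3 MIX mice lay between 8.20 and 8.52, below all CON mice, and within the HD range. The difference of MIX from CON was -0.86 (SE 0.98, 95% interval -3.04 to 1.31, limma adjusted p = 0.853). Top2a had log2 values of 9.17, 8.62 and 7.89 in the CON mice, 9.55, 6.75, 9.65 and 9.16 in the E2 mice, 9.63, 7.86 and 6.44 in the HD mice and 7.31, 7.48 and 7.88 in the MIX mice. Its mean was higher in E2 (8.78) than in CON (8.56), and MIX replicate 3 lay just below CON replicate 3. Over all members the lowest mouse was E2 replicate 2 for 19, HD replicate 3 for 9 and MIX replicate 2 for 8.

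Markers of cell types did not order the mice as the members did. The level of each of 12 marker lists, taken as the mean log2 value of its genes, had r between -0.28 and 0.22 with the members' mean, and between -0.34 and 0.34 after group means were subtracted. Of the 14 epithelial markers 13 were measured, with a mean level of 9.53 to 10.03 in the 13 mice, and of 12 stromal markers 11, at 7.80 to 9.57. Both lists lay above the median of every array (4.48 to 4.71). Smooth muscle markers (9 of 9) lay at 6.25 to 7.20. Some lists differed between groups. Macrophage markers (12 of 12) were at 6.86 to 7.18 in CON, 7.85 to 8.17 in E2, 7.58 to 7.65 in HD and 7.82 to 9.04 in MIX. Granulocyte markers (10 of 10) were at 4.81 to 5.17 in CON, 5.75 to 7.21 in E2, 5.26 to 5.53 in HD and 5.66 to 8.26 in MIX. For both lists all E2, HD and MIX mice lay above CON. Squamous and basal epithelial markers (10 of 10) were at 5.60 to 5.84 in CON, 6.02 to 6.84 in E2, 5.66 to 5.75 in HD and 6.62 to 7.92 in MIX. Lymphocyte markers (11 of 12) were at 4.88 to 5.16 in CON, 5.19 to 5.63 in E2, 5.0 to 5.04 in HD and 5.18 to 5.80 in MIX. In these lists the E2 and MIX mice lay above CON and HD. Mesothelium markers (6 of 6) were at 8.11 to 8.66 in CON, 8.58 to 9.69 in E2, 8.74 to 8.83 in HD and 9.02 to 9.68 in MIX, so HD and MIX lay above CON. MIX replicate 2 had endothelial markers (9 of 9) at 7.71, beside 5.25 to 6.22 in the other mice, and in this list all HD mice (5.62 to 5.75) lay below CON (5.86 to 6.0). The part of these shifts in the members' differences was not tested.

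No member passed the test in any comparison. Differences were fitted with limma over all 65929 features, with the 4 groups and the style of the animal code as terms, and a call needed a Benjamini-Hochberg adjusted p under 0.05. Of the 36 members 0 passed and 0 had an unadjusted p under 0.05 in each of the 8 comparisons. Among all features the share with a limma unadjusted p under 0.05 ran from 2.10% (interaction) to 9.99% (pellet averaged over diets). The share of all features called was 0% for E2 with CON, 0% for HD with CON, 0.00303% for MIX with CON, 0.00455% for MIX with HD and 0% for MIX with E2. It was 0% for the interaction, 0.0167% for the pellet averaged over diets and 0% for the diet averaged over pellet states. The code style is numbered in 2 CON, 3 E2 and 2 HD mice and lettered in the others, MIX included. The meaning of the styles is not known from the labels.

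The estradiol pellet on chow was compared as E2 with CON. Of the members 18 were higher and 18 lower in E2, with a median log2 difference of -0.04, beside -0.01 over all features. The 12 replication genes were higher in 11 and lower in 1, and the 21 mitosis genes higher in 5 and lower in 16. These counts were not stable. With limma's array weights, which give arrays far from the fit less weight, 4 of 12 replication genes and 0 of 21 mitosis genes were higher, and the median of all members was -0.24. Without E2 replicate 4 the counts were 1 of 12 and 0 of 21, without E2 replicate 3 they were 5 of 12 and 4 of 21, and without E2 replicate 2 they were 12 of 12 and 20 of 21. Without CON replicate 1, 13 of 21 mitosis genes were higher. The ends of the range were Rrm2, 0.47 (SE 0.50, 95% interval -0.63 to 1.57, limma adjusted p = 1), and Ccnb2, -0.83 (SE 0.76, 95% interval -2.52 to 0.85, limma adjusted p = 1). The intervals of both include no difference. The groups overlapped in every member, beside 2.6% of all features without overlap and E2 lower and 3.01% with E2 higher. These values rest on single mice, since without E2 replicate 2 the median was 0.45 and without E2 replicate 4 it was -0.49. The numbered mice alone gave a median of -0.40, and the lettered pair of 1 mouse each gave 0.98.

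The high-fat diet without a pellet was compared as HD with CON. In HD 35 of 36 members were lower, with a median of -0.48, beside 0.02 over all features, of which 42.8% were lower. The differences of mitosis genes ran from -1.27 (Ccnb2) to -0.26 (Cdk1) with a median of -0.73, and those of replication genes from -0.48 (Mcm3) to 0.01 (Cdc6) with a median of -0.24. The median standard error of a member was 0.62. The groups overlapped in every member, beside a share without overlap of 2.96% among all features with HD lower and 5.58% with HD higher. By the mean of the members, HD replicate 1 was the highest mouse (8.10) and HD replicate 3 was among the lowest (6.18). HD replicate 2 (6.72) lay between them. With array weights the median was -0.84, without HD replicate 1 it was -1.02 and without HD replicate 3 it was -0.14. The numbered mice alone gave -0.39 and the lettered pair -0.90.

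Both treatments together were compared with neither as MIX with CON. All 36 members were lower in MIX in the fit, with a median of -0.50, beside -0.03 over all features, of which 57.5% were lower. Estimates ran from -1.26 for Mcm3 to -0.15 for Bub1. For 17 of 36 members, or 10 of 12 replication genes, 5 of 21 mitosis genes, Mki67 and Top2a, all MIX mice lay below all CON mice, beside 12.4% of all features with MIX lower. In 0 members did all MIX mice lie above CON, beside 5.52% of features. Both counts used the log2 values without the code style term, and the members vary together, so they are not separate observations. Replication genes had a median of -0.66 and mitosis genes of -0.47. Without the code style term these were -0.73 and -0.86, and the median of all members was -0.83, and with array weights it was -1.10. The adjusted p of the members was 0.682 or above. Without E2 replicate 4, which helps to estimate the code style term, the median was -0.13, and without HD replicate 3 it was -0.78. Within the lettered mice, with 1 CON mouse, it was -0.29.

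The high-fat diet under the pellet was compared as MIX with E2. In the fit 35 of 36 members were lower in MIX, Ccnb2 being the other, and the median was -0.44, beside -0.02 over all features. Replication genes were lower in 12 of 12, from -1.18 (Mcm3) to -0.47 (Cdt1), and mitosis genes in 20 of 21 with a median of -0.35. Tyms was the 1 member of 36 without overlap, beside 4.15% of all features with MIX lower and 1.5% with MIX higher. The sign of the median turned on 1 mouse: without E2 replicate 4 it was 0.31, with 9 of 12 replication genes and 0 of 21 mitosis genes lower, and without E2 replicate 2 it was -0.82. Without the code style term it was -0.86, and the lettered mice alone, with 1 E2 mouse, gave -1.25.

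The pellet under the high-fat diet was compared as MIX with HD. Members were higher in 19 and lower in 17, with a median of 0.05, beside -0.04 over all features. Replication genes were lower in 12 of 12, with a median of -0.44, and mitosis genes higher in 17 of 21, with a median of 0.26. With each array centred on its median 11 of 12 replication genes were lower, and without the code style term mitosis genes were higher in only 4 of 21, so the direction of the mitosis genes depends on that term. The ends of the range were Mcm3, -0.78 (SE 0.75, 95% interval -2.45 to 0.88, limma unadjusted p = 0.321), and Ccnb2, 0.72 (SE 0.93, 95% interval -1.35 to 2.78, limma adjusted p = 0.877). The groups overlapped in all 36 members, beside shares without overlap of 12.4% of features with MIX lower and 3.47% with MIX higher. The median was -0.10 with array weights, -0.25 without the code style term, -0.52 without HD replicate 3 and 0.42 without E2 replicate 4. Within the lettered mice, with 1 HD mouse, it was 0.39.

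The interaction asks whether the difference made by the pellet under the high-fat diet departed from the one under chow. Replication genes were below 0 in 12 of 12, with a median of -0.64, and mitosis genes above 0 in 16 of 21, with a median of 0.41. Without E2 replicate 4 replication genes were above 0 in 10 of 12 and mitosis genes in 21 of 21. Without the code style term mitosis genes were above 0 in 8 of 21. Cdc6, -1.05 (SE 0.72, 95% interval -2.65 to 0.55, limma adjusted p = 1), and Ccnb2, 1.55 (SE 1.22, 95% interval -1.16 to 4.26, limma adjusted p = 1), stood at the ends, and the median standard error of a member was 0.93. Averaged over both diets, the pellet difference had a median of -0.02 with 16 members higher and 20 lower, moving to -0.25 under array weights and 0.04 with each array centred on its median. Leaving out E2 replicate 2 gave 0.37, and leaving out HD replicate 3 gave -0.29. Averaged over both pellet states, the diet difference was below 0 in 36 of 36 members, with a median of -0.54 beside 0.0013 over all features. Its smallest p was that of Cdt1, -0.34 (SE 0.18, 95% interval -0.73 to 0.04, limma adjusted p = 1), unadjusted p = 0.0767. Without E2 replicate 4 that median was -0.10 and without HD replicate 1 it was -0.89. These averages share their mice with the comparisons above.

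**Figure D4:**
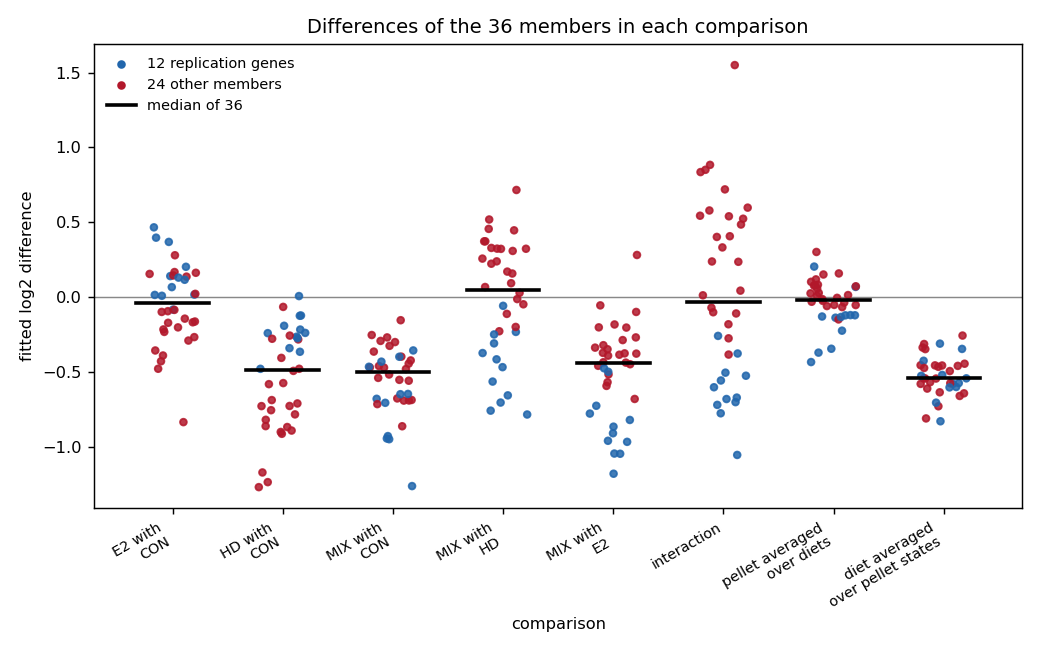
Fitted log2 differences (y axis) of the 36 members in the 8 comparisons (x axis); blue points are the 12 replication genes, red points the 24 other members, and black bars the median of all 36. The points lie mostly below 0 for HD with CON (median -0.48), MIX with CON (-0.50) and the averaged diet (-0.54), and no point passed the test.

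Replication and mitosis genes were not in the same proportion in every mouse. The mean of the 12 replication genes minus that of the 21 mitosis genes was -0.40, -0.40 and 0.22 in CON and -0.68, 0.64, 0.01 and 0.36 in E2. In HD it was -0.31, 0.63 and 0.51, and in MIX -0.27, 0.03 and -0.14. The highest values were those of E2 replicate 2 and HD replicates 2 and 3, mice in which the mean of the 36 members was low. Other mice did not follow that order: MIX replicates 1 and 3, whose mean was also low, were below 0, and E2 replicate 4, whose mean was high, was above 0. Both means come from different features, so a value of 0 does not mark equal expression and only differences between mice can be read. The group means, -0.19 ± 0.36 (SD, n = 3) in CON, 0.08 ± 0.57 (SD, n = 4) in E2, 0.28 ± 0.51 (SD, n = 3) in HD and -0.12 ± 0.15 (SD, n = 3) in MIX, overlapped. Over the mice the median r was 0.94 within the replication genes, 0.96 within the mitosis genes and 0.85 between them. A second axis held 4.52% of the members' variance, with positive weights for all replication genes and negative weights for 17 of 21 mitosis genes.

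**Figure D5:**
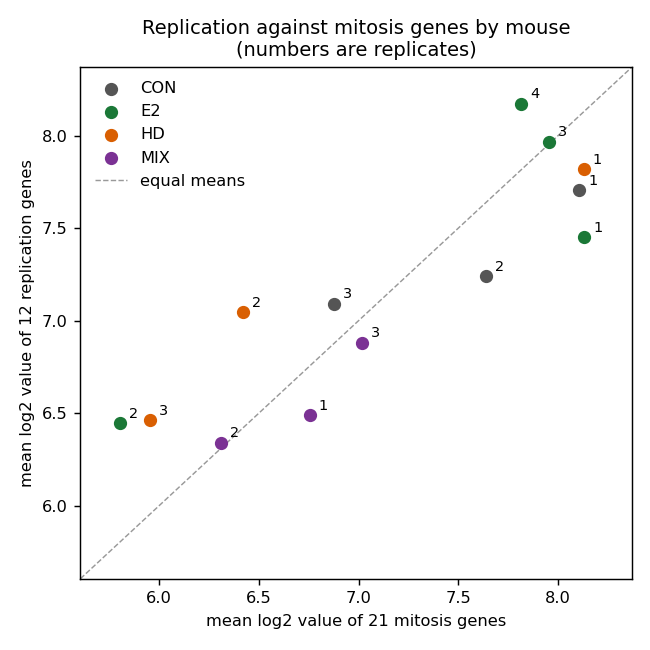
Mean log2 value of the 12 replication genes (y axis) against that of the 21 mitosis genes (x axis); each point is a mouse, coloured by group and numbered by replicate, and the dashed line marks equal means. The means of E2 replicate 2 are 6.45 for replication and 5.80 for mitosis genes, and those of E2 replicate 1 are 7.45 and 8.13.

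Other replication and mitosis genes varied with the members, and regulators of G1 and S phase entry did so in part. Of 38 further replication genes 37 were measured, of 54 further mitosis genes 54, and of 32 regulators of G1 and S phase entry 30, and none passed the test in any comparison. Over the mice, the mean level of the further replication genes had r = 0.94 with the members' mean, that of the further mitosis genes 0.996 and that of the regulators 0.92. Single regulators did not all follow their list's mean. For example, r was 0.85 for E2f7, 0.14 for Myc, -0.45 for Cdkn2b and -0.53 for Cdkn1b. In HD compared with CON 52 of 54 further mitosis genes and 30 of 37 further replication genes were lower. In MIX compared with CON these counts were 54 of 54 and 35 of 37, with medians of -0.34 and -0.40. In E2 compared with CON 34 of 37 further replication genes were higher, with a median of 0.17. That count was 37 of 37 without E2 replicate 2, 5 of 37 without E2 replicate 4 and 22 of 37 with array weights.

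The smallest p-values in these lists belonged to a few genes. Ccnd2, a D-type cyclin that acts in the G1 phase, had log2 values of 9.12, 9.34 and 8.94 in the CON mice, 7.82, 7.62, 7.71 and 8.89 in the E2 mice, 7.68, 7.24 and 6.48 in the HD mice and 7.22, 7.81 and 7.80 in the MIX mice. All E2, HD and MIX mice lay below the 3 CON mice. Its difference of HD from CON was -2.0 (SE 0.37, limma unadjusted p = 0.000296, adjusted p = 1), and that of MIX from CON was -1.53 (SE 0.43, adjusted p = 0.398). Pold1 and Pold2, subunits of the replicative polymerase delta, differed between MIX and CON by -0.57 (SE 0.22, limma adjusted p = 0.521) and -0.53 (SE 0.21, limma adjusted p = 0.537). Myc, a growth-promoting transcription factor, differed by -0.77 (SE 0.29, limma adjusted p = 0.498) in the same comparison. Cdkn1a, the p21 inhibitor of cyclin-dependent kinases, differed by 1.30 (SE 0.47, limma adjusted p = 0.685) between MIX and HD. These differences come from the fit with the code style term. The plain group means of Myc were 8.13 in MIX and 8.58 in CON, and those of Cdkn1a 8.59 in MIX and 7.76 in HD. In Cdkn1a, MIX replicate 2 (7.89) stood close to HD replicate 1 (7.87).

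The genes most like the members were found by the correlation of each of 20445 other genes with the members' mean over the 13 mice. The 10 nearest were Diaph3, Trip13, Pbk, Dlgap5, Sgo1, Cenpm, Aspm, Tacc3, Racgap1 and Kif22, with r from 0.981 to 0.992. In all, 180 genes (0.880%) had r above 0.9, and 65 of them were in the lists of further replication and mitosis genes. Diaph3 had log2 values of 6.94, 6.43 and 5.98 in the CON mice, 6.92, 5.31, 7.09 and 6.95 in the E2 mice, 7.28, 5.76 and 5.26 in the HD mice and 5.70, 5.42 and 6.11 in the MIX mice. The same mice were high and low as for the members, which follows from its choice by that correlation.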

How the data were processed

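Each of the 13 arrays used 250 ng of total RNA, labelled with an Affymetrix WT PLUS kit (labels' protocols). Per the submitters' processing notes the authors computed the deposited log2 values, 1 for each feature (a transcript cluster), with RMA. The method equalises the arrays' distributions, so values of 1 mouse depend on the others. Dim features are also compressed on such arrays. The RMA version and the array library are not given in these sources. Array medians were 4.48 to 4.71, correlations between arrays 0.960 to 0.995, and an array gives no read depth.

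Features were named through the supplied array annotation, with 827 symbols updated through Entrez identifiers. Of 65929 features 30604 had 1 gene symbol, 2146 several and 33179 none here. Where a symbol had several features, that of the highest overall mean was taken.

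Differences were tested two-sided with lmFit and eBayes of limma 3.58.1 (R 4.3.3), with all 13 mice, the 4 groups and the animal code style as terms, 8 residual and 2.225 prior degrees of freedom. P-values were adjusted with Benjamini-Hochberg over all 65929 features, and the fit was tested on simulated data. The members, lists and tests were chosen with earlier results of these data known. By the rule for named genes, every member could be named, with up to 4 genes per comparison of smallest p from the other lists and the 10 genes most correlated with the members' mean, with predicted and clone-based symbols (Gm, Rik, LOC) left out. List medians, counts and correlations are descriptions without tests. Promoter sequences are from RefSeq. Alternatives left out the code style term, each mouse in turn, dim features or 1 code style, and used array weights, a mean-variance trend, centred arrays or replicate number as a block.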

Additional observations from a re-analysis of the deposited data

Results flagged for a closer look

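In the E2 group, replicate 2 lay far from the other 3 mice in 13 of the 36 members. In each, the gap from this mouse to the next, divided by the group's range, was above Dixon's 95% critical value for 4 samples and reached 0.981. The log2 values of this mouse were 6.16 for Tyms, 6.29 for Ccna2, 6.09 for Ccnb2, 6.58 for Plk1, 6.14 for Aurka, 5.49 for Bub1b and 5.63 for Melk. They were 5.53 for Cdc20, 6.12 for Kif20a, 5.92 for Prc1, 5.89 for Tpx2, 7.25 for Mki67 and 6.75 for Top2a. The same held for the mean of all members (6.1) and of the mitosis genes (5.8). Chance flags about 1 in 20 groups, and the members vary together, so these are not 13 separate observations. The groups of 3 mice were not examined in this way.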

How the results depend on the processing

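In 160 refits (20 settings in 8 comparisons) no member passed the threshold in limma. The smallest limma adjusted p was 0.207 (HD with CON, array weights). At most 25 members had a limma unadjusted p under 0.05 (averaged diet, without E2 replicate 2). The share of all features in that refit is not given here, and in the fit reported it was 3.36% beside 0 members. The members vary together, so such counts are not separate observations. Calls over all features ranged from 0 to 89 for MIX with CON (2 in the fit reported), 0 to 80 for MIX with HD (3), 0 to 24 for MIX with E2 (0), 0 to 2 for the interaction (0), 0 to 224 for the averaged pellet (11) and 0 to 3 for the averaged diet (0). The replicate numbers did not pair the mice: of 18 same-numbered pairs 5 had deviations correlated above 0.1 (-0.26 to 0.31). With a replicate block in the fit, the members' median was 0.34 for MIX with CON, 0.87 for MIX with HD, 1.03 for MIX with E2, 1.62 for the interaction and 0.27 for the averaged diet. For E2 with CON it was -0.78, the lowest of any setting, with 0 of 12 replication and 0 of 21 mitosis genes higher. In that refit 11 members had an unadjusted p under 0.05 in limma. The share of all features is not given for it either, and in the fit reported it was 4.02% beside 0 members. The counts of 25 and 11 members can therefore not be set against the background of their own refits. Only the 3 members of smallest p in each comparison were followed singly, so the signs listed here are not all that turned. Among them the block turned the sign of Gins1 (-0.11) and Rrm2 (-0.35) in E2 with CON. In MIX with CON it turned that of Mcm3 (0.015) and Cdt1 (0.032), and in MIX with HD that of Mcm6 (0.27), Mcm2 (0.20) and Cdc6 (0.37). It did so for Tyms (0.18), Mcm2 (0.66) and Cdc6 (0.74) in MIX with E2, Gins1 (0.42) and Cdc6 (0.73) in the interaction, and Mcm2 (0.21) and Cdt1 (0.093) in the averaged diet. The lettered mice alone gave medians of 0.98 for E2 with CON and -1.25 for MIX with E2. Without 1 mouse in turn the medians ranged from -0.49 to 0.45 for E2 with CON, -1.02 to -0.14 for HD with CON, -0.78 to -0.13 for MIX with CON, -0.52 to 0.42 for MIX with HD, -0.82 to 0.31 for MIX with E2 and -0.55 to 0.76 for the interaction. Without E2 replicate 4, Rrm2 in E2 with CON was -0.14 and Gins1 in the interaction 0.079; the other ends of their ranges were 0.86 (without E2 replicate 2) and -1.08 (without HD replicate 3). The cause was not tested. No member had more than 1 feature, so averaging features changed nothing. With 3 or 4 mice a group and a median standard error of 0.58 to 0.71 in comparisons of 2 groups, differences of the size seen here could not be told from 0.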

Other observations

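Genes that ran opposite to the members were looked up after the values were seen. Of 20445 genes, 27 had r below -0.8 with the members' mean over the 13 mice. The lowest was Lrat (r = -0.918), which esterifies retinol. Lrat stood at 5.44, 5.44 and 6.62 in the CON mice, 6.13, 7.98, 5.62 and 5.44 in the E2 mice, 5.52, 6.66 and 7.26 in the HD mice and 6.89, 6.73 and 6.19 in the MIX mice. E2 replicate 2 and HD replicate 3, low in the members, were the highest in Lrat. The next were Yipf2 (r = -0.9165), Mien1 (r = -0.894) and Ccpg1 (r = -0.890). They were followed by the autophagy genes Atg14 (r = -0.868) and Nbr1 (r = -0.868), and by Ergic3 (r = -0.859). Then came Hbp1 (r = -0.859), a transcriptional repressor of cell cycle genes, and Txnip (r = -0.854), an inhibitor of thioredoxin. Ezh1 (r = -0.854), a histone methyltransferase, came after these. These values are descriptions of the same 13 mice and were not tested.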
